A study of Ceratopteris richardii with 9 samples.

Results

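The 200 steadiest transcripts of the young sporophyte of the fern Ceratopteris richardii were chosen as candidate reference transcripts from 9 RNA-seq libraries. Estimated counts were rounded and converted to CPM, counts scaled to a common library size, here after correction with edgeR's TMM factors. For each transcript with a mean of at least 20 CPM, the coefficient of variation (CV, the SD divided by the mean) was taken over all 9 libraries, and the 200 smallest values were kept. This took 200 of 10390 transcripts at or above 20 CPM, or 1.92%, out of 28952 in the table. The table is named as filtered and holds fewer transcripts than the paper's assembly. Shares of all transcripts below are therefore shares of the table. Since the choice rests on the CPM of these same libraries, the CV and the levels below describe the selection, and no test of them is given.

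All plants were of genotype Hn-n, subcultured from 15 days after fertilization, grown upright at 25 °C with 16 h of light and 8 h of dark, and collected at 45 days after fertilization. The shoot (SH) was the leaves with the stem and no root, the differentiated root (DR) was root from which the tip had been removed, and the root tip (RT) was that tip. Each segment had 3 libraries, which the methods describe as independent biological replicates, and each library pooled tissue from many organs. Total counts ranged from 20065742 to 27376654 per library. Each segment mixes many cell types, so a steady level in bulk tissue can hide changes between cells, and fewer cells of a type cannot be told apart from less RNA per cell.

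A reference transcript is the yardstick against which others are measured in quantitative PCR, and it is useful only if its own level hardly moves between the tissues compared. In plants, genes of basic cell upkeep such as those for actin, tubulin, elongation factors and ubiquitin are commonly taken for this purpose, and their levels can still differ between organs and between growing and mature tissue. A sequencing library reports shares of a total, so what counts as steady depends on the factor that puts libraries on a common scale. TMM sets that factor from the bulk of transcripts after trimming the extreme ratios, on the assumption that most transcripts do not differ. Here edgeR with TMM called 57.8% to 58.1% of all transcripts in each pair of segments, in either direction. With a log2 difference of at least 2 it called 20.2% to 23.9%. These calls were made with TMM themselves, so whether the assumption was met cannot be decided from them. The transcripts here are numbered entries of an assembly made from these libraries, 0 of which matched the reference gene table, and none of the 200 is named in the study's text, so they are given by number and without gene names or positions.

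The CV of the 200 ran from 0.0438 to 0.106 with a median of 0.0900, against a median of 0.424 over the 10390 transcripts at or above 20 CPM. Their highest library exceeded their lowest by 1.13-fold to 1.502-fold, with a median of 1.305-fold, against a median of 3.25-fold over the 10390. The mean of the highest segment exceeded that of the lowest by 1.008-fold to 1.253-fold, with a median of 1.11-fold, against 2.44-fold. Differences between segments made up a median of 33.8% of a member's sum of squares over libraries, against 88.4% over the 10390. In most of the 200 the larger part of this sum thus lay between replicates of a segment. The upper quartile of the share between segments was 52.5% and its maximum 93.8%, so this does not hold for every member. With 3 libraries in each of 3 segments, a small share between segments also arises where segments do not differ. The shares therefore do not weigh segments against replicates.

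The 200 were of low to moderate abundance. Their mean levels ran from 20.02 to 479 CPM with a median of 39.6 CPM, close to the median of 44.9 CPM of the 10390. The selection took 65 of 2658 transcripts between 20 and 30 CPM (2.45%), 60 of 3119 between 30 and 50 CPM (1.92%) and 56 of 2697 between 50 and 100 CPM (2.08%). It took 12 of 1229 between 100 and 200 CPM (0.976%), 7 of 503 between 200 and 500 CPM (1.39%) and 0 of 184 above 500 CPM, where the smallest CV was 0.115. The most abundant transcripts thus varied most, with a median CV of 0.739 above 500 CPM against 0.409 between 20 and 30 CPM.

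**Figure D1:**
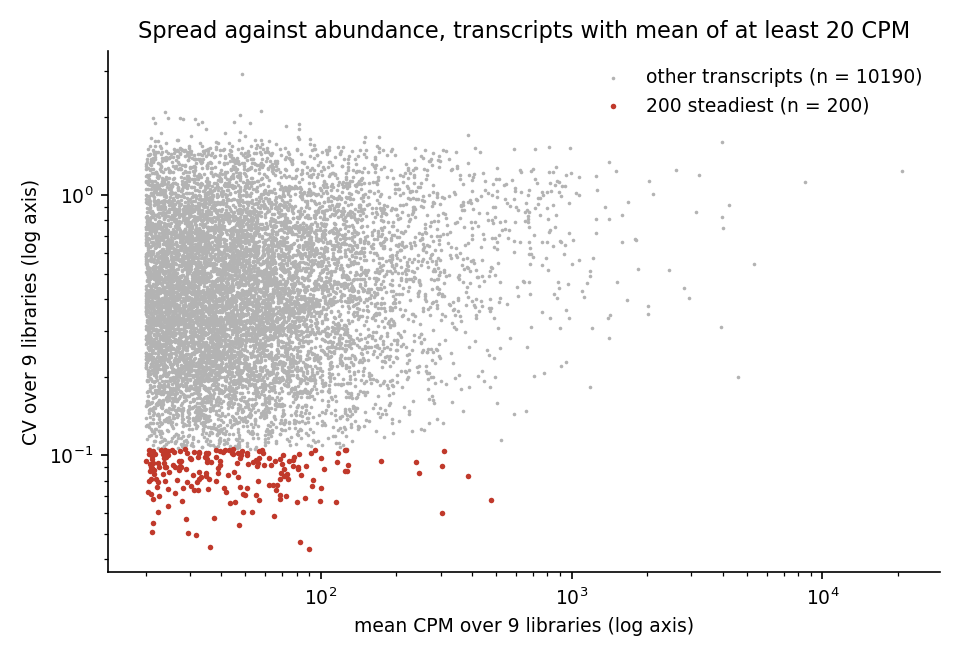
Each point is a transcript, with its mean level over the 9 libraries in CPM on the horizontal log axis and its CV on the vertical log axis, and the 200 chosen ones are in red. They fill the lower edge, at a CV of at most 0.106, from 20.02 to 479 CPM, and none lies above 500 CPM.

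Counting error set a floor under these values. The lowest count of any of the 200 in any library was 339, and the CV that counting alone would give had a median of 0.0321. Counting made up a median of 13.3% of the squared CV of a member, with a range of 1.21% to 74.7%, against a median of 0.453% over the 10390, and it passed 50% for 5 of the 200. All 5 are among the 10 steadiest, so their order there is limited by depth.

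The smallest CV of all belonged to transcript58037. Its level was 89.2, 91.2 and 91.1 CPM in SH replicates 1 to 3, 92.1, 93.7 and 87.1 CPM in the DR and 83.6, 92.6 and 83.0 CPM in the RT. The segments overlapped, RT replicates 1 and 3 were the lowest libraries, and the highest was 1.13-fold above the lowest (CV 0.0438). Its segment means were 90.5 ± 1.096 (SD, n = 3), 91.0 ± 3.46 (SD, n = 3) and 86.4 ± 5.38 CPM (SD, n = 3).

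Next came transcript50189, at 39.6, 34.3 and 34.9 CPM in the SH, 36.3, 35.5 and 35.7 CPM in the DR and 35.9, 37.9 and 36.2 CPM in the RT (CV 0.0444). SH replicate 1 alone stood high, and without it the CV was 0.0296. The third was transcript56644, at 84.1, 83.7 and 84.4 CPM in the SH, 82.2, 86.1 and 80.4 CPM in the DR and 79.9, 87.3 and 74.6 CPM in the RT (CV 0.0464). Its SH libraries lay within 1 CPM of each other while its RT libraries spread widely, and without RT replicate 3 the CV was 0.0273.

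The fourth, transcript128196, had segment means of 31.1 ± 0.821, 31.8 ± 0.558 and 32.0 ± 2.84 CPM (SD, n = 3) in the SH, DR and RT. The fifth, transcript50482, had 29.4 ± 0.507, 28.4 ± 1.38 and 30.8 ± 1.56 CPM (SD, n = 3). The sixth, transcript37343, had 21.8 ± 1.43, 20.6 ± 0.985 and 21.3 ± 0.805 CPM (SD, n = 3), and counting alone would give 74.7% of its squared CV. In transcript128196 and transcript37343 the segment means lay closer together than the SD of the most variable segment, while in transcript50482 the DR and RT means differed by more than either SD.

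The remaining members of the 10 steadiest were transcript152424, transcript22778, transcript53077 and transcript65200, with mean levels of 47.0, 21.4, 29.1 and 37.6 CPM and CVs of 0.0538, 0.0549, 0.0572 and 0.0573. Over all 10, the highest segment mean exceeded the lowest by 1.02-fold to 1.08-fold. The segment with the highest mean was the SH for transcript56644 and transcript37343, and the DR or RT for the other 8. Of the 9 scalings described further down, the quantile one kept all 10 among its own 200 smallest CVs, and scaling by library size kept 0 of them, with CVs of 0.142 to 0.176.

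**Figure D2:**
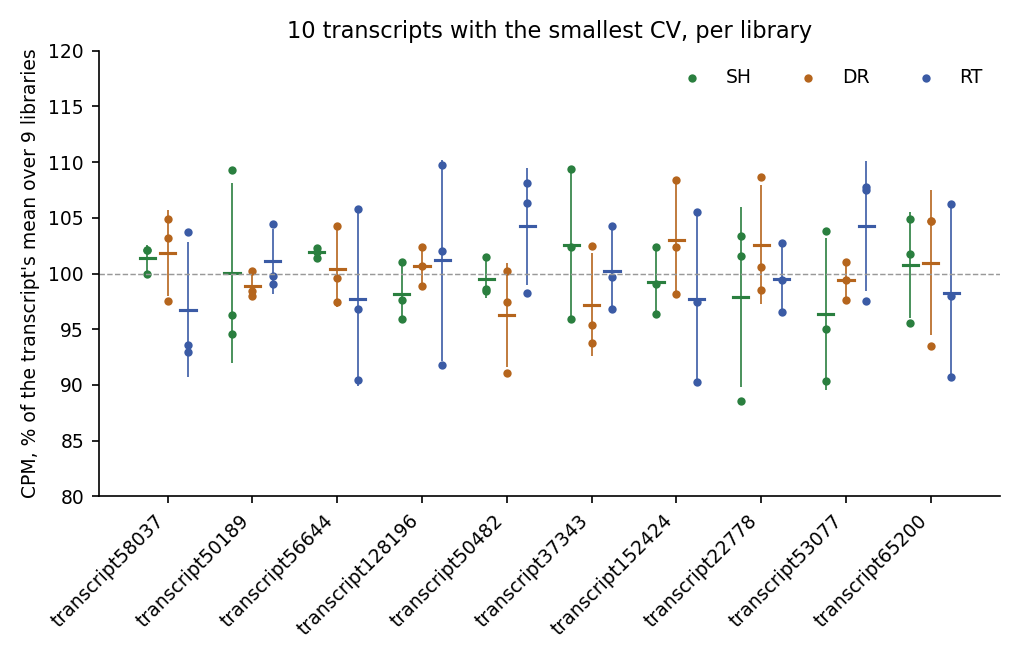
Level of the 10 transcripts with the smallest CV in each library, as a percentage of the transcript's mean CPM over 9 libraries, with points for libraries and horizontal and vertical lines for the mean and SD of the 3 libraries of a segment. The segments overlap in most transcripts, and the CV runs from 0.0438 for transcript58037 to 0.0573 for transcript65200.

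Ratios between 2 transcripts of a library need no scaling factor, because the factor divides out. Among the 10 steadiest, the 45 pairwise count ratios had an SD on the log2 scale of 0.03 to 0.13, and the highest ratio over 9 libraries exceeded the lowest by 1.07-fold to 1.34-fold with a median of 1.24-fold. The tightest pair was transcript58037 to transcript56644, at a ratio of 1.08 ± 0.0143 (SD, n = 3) in the SH, 1.097 ± 0.0209 (SD, n = 3) for the DR and 1.07 ± 0.0350 (SD, n = 3) for the RT. The pair was named after its ratio was seen, and both transcripts dipped together in RT replicates 1 and 3. Averaged over the other members, the SD of a member's log2 ratio ran from 0.13 for transcript58037 to 0.22, with a median of 0.17. All of these transcripts were chosen for a small CV in these same libraries, so small ratio spreads follow from the choice and only describe it.

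The 5 most abundant members stood at 303 to 479 CPM. The highest, transcript27966, was at 492, 479 and 464 CPM in the SH, 512, 506 and 459 CPM in the DR and 410, 510 and 478 CPM in the RT (CV 0.0675), with RT replicate 1 low and the segments overlapping. The second, transcript121189, at 410 ± 36.2, 358 ± 25.0 and 390 ± 9.28 CPM (SD, n = 3) in the SH, DR and RT, was highest in the SH and lowest in the DR. Its CV was 0.0653 without DR replicate 2, the lowest library, and 0.0715 without SH replicate 1, the highest, against 0.0830 with all 9. In transcript106842 the SH was at 311, 310 and 312 CPM and the DR at 325, 314 and 280 CPM, while the RT was at 326, 367 and 249 CPM. Its segment means differed by only 1.03-fold, and its place near the end of the 200 came from the RT libraries, which covered the whole range. The steadier of the abundant ones was transcript120502, at 305 ± 6.92, 292 ± 13.8 and 317 ± 24.8 CPM (SD, n = 3), which was 12th by CV. The fifth, transcript111674, was at 275 ± 3.96 CPM (SD, n = 3) in the SH, below 315 ± 13.6 and 321 ± 31.6 CPM (SD, n = 3) for the DR and RT, with all 3 SH libraries under the other 6.

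At the low end, transcript56255 averaged 20.02 CPM and transcript45405 averaged 20.4 CPM, with CVs of 0.0950 and 0.0721. At the limit of the selection, transcript40917 and transcript34151 were the last 2 taken, with CVs of 0.1054 and 0.1057, and transcript3804 and transcript111079 the first 2 left out, with CVs of 0.1057 and 0.1060. The values on either side differ by far less than leaving out a single library moves them. In transcript40917 the CV was 0.0507 without RT replicate 3, which stood at 33.9 CPM against 42.2 to 50.8 CPM in the other 8 libraries.

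No segment was consistently the highest under TMM. The highest mean lay in the SH for 52 of the 200, in the DR for 75 and in the RT for 73, and the lowest in the SH for 68, in the DR for 57 and in the RT for 75. All 3 libraries of a segment lay above the other 6 in 3 members for the SH, 13 for the DR and 5 for the RT, or 1.5%, 6.5% and 2.5% of the 200. The shares over the 10390 transcripts were 25.3%, 21.0% and 22.0%. All 3 lay below the other 6 in 9, 6 and 6 members, against 18.0%, 18.7% and 22.4% of the 10390. The rule itself favours overlapping segments, and these shares are given as a description.

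The libraries, unlike the segments, moved as a group in the RT. The geometric mean level of the 200 was 44.2 ± 0.469 CPM (SD, n = 3) in the SH, 44.9 ± 0.156 CPM (SD, n = 3) for the DR and 44.4 ± 2.42 CPM (SD, n = 3) for the RT. The RT libraries were at 42.8, 47.2 and 43.2 CPM, so RT replicate 2 lay above every other library and RT replicates 1 and 3 below. In RT replicate 2, 159 of the 200 were above their own mean, 58 had their highest value and 1 had its lowest. RT replicates 1 and 3 held the lowest value of 47 and 51 members. The TMM factors of the RT libraries were 1.248, 1.07 and 1.011, a wider range than the 1.09 to 1.103 of the DR. A part of the spread is therefore common to most of the 200, and the scaling of the RT libraries and the libraries themselves cannot be told apart in it.

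The scaling mattered most in the SH. Without TMM, on CPM by library size alone, the same geometric mean was 36.5 ± 1.76 CPM (SD, n = 3) in the SH, 49.2 ± 0.505 CPM (SD, n = 3) for the DR and 49.2 ± 4.96 CPM (SD, n = 3) for the RT. Every SH library, at 34.5, 37.7 and 37.3 CPM, then lay below every root library, the nearest of which was RT replicate 3 at 43.7 CPM. The SH was the lowest segment for 200 of the 200. The 10 most abundant transcripts of a library took 11.2% ± 0.752 (SD, n = 3) of the SH counts, 4.59% ± 0.0846 (SD, n = 3) of the DR counts and 4.67% ± 0.974 (SD, n = 3) of the RT counts. The 200 took 0.947%, 1.27% and 1.27%. The TMM factors were 0.773 to 0.853 in the SH, which raises its CPM, and 1.011 to 1.248 in both root segments.

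**Figure D3:**
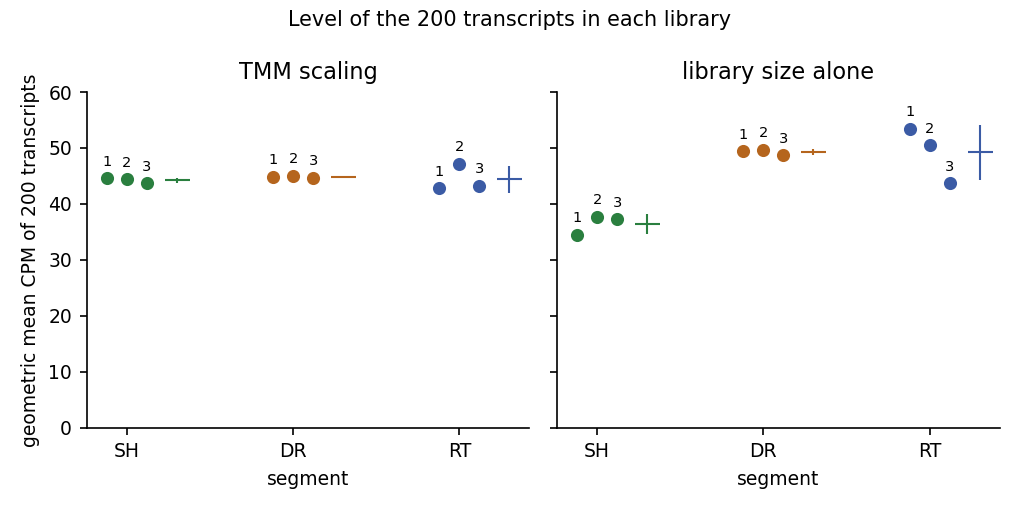
Geometric mean level of the 200 transcripts in CPM in each library, numbered by replicate, under TMM on the left and by library size alone on the right, with crosses for the mean and SD of 3 libraries. Under TMM the segment means are 44.2, 44.9 and 44.4 CPM, and by library size the SH falls to 36.5 CPM against 49.2 CPM in both root segments.

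The stability of the 200 was recomputed under 9 scalings in all, each with its own 200 smallest CVs among transcripts of at least 20 CPM. TMM factors computed without the 200 themselves gave a median CV of 0.0895 and kept 197 of them, and TMM without the 10 most abundant transcripts of each segment gave 0.0901 and kept 196. The geometric mean of the 10 steadiest, used as a factor in the way of reference transcripts, gave 0.0859 and kept 184. The TMM factors without the 200 or without the most abundant transcripts still rest on nearly all the same transcripts. The 10 steadiest were themselves chosen by their CV under TMM, so the closeness of these scalings to TMM is largely built in. The relatives of TMM followed, with 0.0940 and 160 kept for TMMwsp, which handles zero counts differently, 0.0926 and 150 for upper-quartile factors, and 0.0996 and 143 for RLE, the relative log expression factors that DESeq2 uses. Quantile normalization, which gives every library the same set of values, gave 0.0997 and kept 124. Library size alone gave 0.176 and kept 19.

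**Figure D4:**
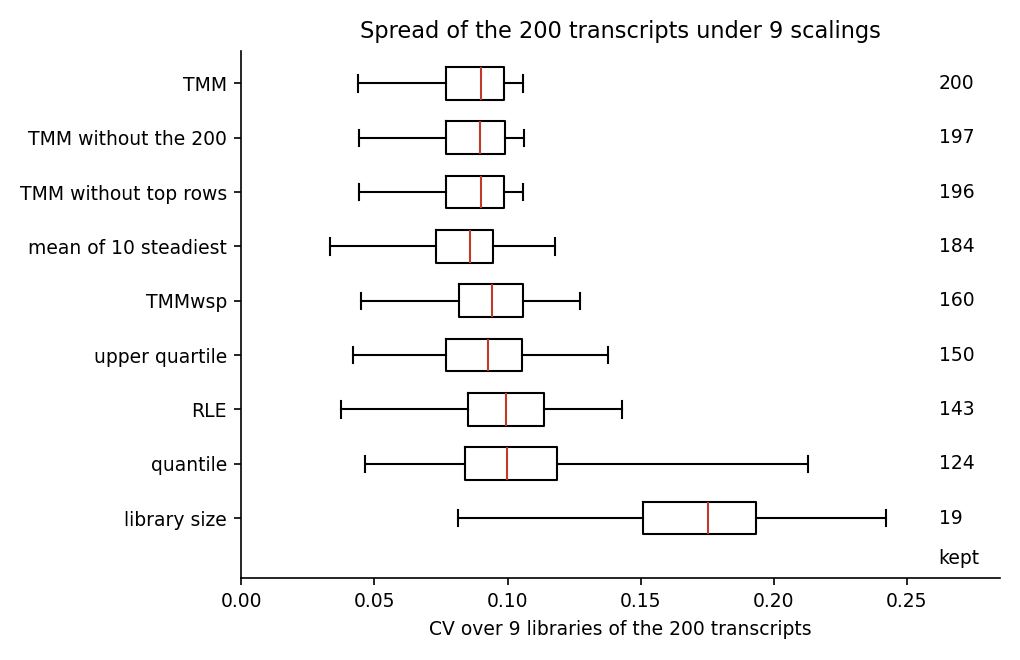
CV of the 200 transcripts over 9 libraries under 9 scalings, with boxes for the middle 50%, red lines for medians and whiskers to the lowest and highest value, and on the right the number of the 200 that stayed among the 200 smallest CVs of that scaling. Median CVs lie between 0.0859 and 0.0997 except by library size, at 0.176 with 19 kept.

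Quantile normalization dropped 60 of the 181 members under 100 CPM and 16 of the 19 at or above it. All 5 of the most abundant left the 200, with CVs of 0.142 to 0.213, and the 0.213 of transcript27966 was the largest CV of any member outside the library-size scaling. The 10 steadiest, at 21.2 to 89.3 CPM, had CVs of 0.0466 to 0.0875 under it.

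By segment means, the highest lay within 25% of the lowest in all but 1 of the 200 under TMM and under the geometric mean of the 10 steadiest, in 177 under RLE, 162 under quantile normalization and 20 by library size. The exception under TMM, transcript145941, was at 1.253-fold. The median log2 ratio of the SH to the mean of the root segments was -0.011 under TMM, -0.042 under RLE, -0.086 under upper-quartile factors, -0.13 under quantile normalization and -0.43 by library size. Over the 10390 transcripts this ratio itself shifted, from -0.11 under TMM to -0.55 by library size, so the SH deficit of the 200 by library size is close to the shift that the scaling gives to transcripts in general.

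A list chosen by library size alone was nearly a different one. Its 200 smallest CVs, up to 0.131, shared 19 transcripts with the 200 here, or 9.5% of either list. Under TMM all 200 of that list had their highest mean in the SH, at a median log2 ratio of 0.37 to the root segments, and 52 of them stayed within 25%. The TMM factors are lower in the SH, so a transcript steady by library size is raised there, and this order is largely built in.

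Library size kept 19 members, and the 13 that stayed among the 200 smallest CVs under all 9 scalings are part of these. All had their highest mean in the SH under TMM, as 52 of the 200 did. For transcripts steady by library size this is again largely built in by the TMM factors. The smallest worst-case CV over the 9 scalings, 0.0871, belonged to transcript44058. It was at 36.4, 32.8 and 33.0 CPM in the SH, 28.8, 29.1 and 30.2 CPM in the DR and 28.4, 29.8 and 30.7 CPM in the RT under TMM (CV 0.0839), and its CV by library size was 0.0815. All 3 SH libraries lay above the other 6, by 1.16-fold between the highest and the lowest segment mean.

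The next were transcript41696, transcript152124, transcript109008 and transcript42928, with worst-case CVs of 0.105, 0.1102, 0.114 and 0.115. Under TMM transcript41696 had segment means of 45.7 ± 1.43, 42.3 ± 2.48 and 39.6 ± 3.85 CPM (SD, n = 3) in the SH, DR and RT, and transcript152124 had 67.4 ± 6.09, 61.0 ± 3.16 and 57.1 ± 4.30 CPM (SD, n = 3). These 5, picked for a small worst case, were thus intermediate by TMM, with CVs of 0.0809 to 0.0977. Their CVs still moved with the scale, at 0.0464 to 0.0733 under quantile normalization and 0.0815 to 0.115 by library size. With library size set aside, 81 of the 200 stayed among the 200 smallest under the other 8 scalings, and 121 kept a CV of at most 0.12 throughout. Those 8 include TMM itself and the scalings built from it.

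At the other end, transcript94005, transcript41837 and transcript86117 had the largest CVs by library size, 0.242, 0.237 and 0.229. Under TMM transcript94005 was at 20.5, 20.7 and 21.7 CPM in the SH, 23.5, 25.4 and 26.7 CPM in the DR and 26.6, 25.5 and 23.6 CPM in the RT (CV 0.102). All of its SH libraries were already the lowest under TMM, and scaling by library size widened that gap.

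Each pair of segments was also compared by fitting all 9 libraries together in edgeR (quasi-likelihood F test, p adjusted by Benjamini-Hochberg across 28952 transcripts). The comparisons share libraries, and the members were picked for small differences in these libraries, so the counts are read beside the share called over all transcripts and nothing is drawn from them. In RT against DR, 4 of the 200 passed an adjusted p of 0.05, where 57.8% of all transcripts did. In RT against SH, edgeR called 0 of the 200 against 58.1% of all transcripts. DESeq2 called 2 there against 59.4%, and limma voom 0 against 57.8%. In DR against SH, 1 of the 200 was called against 57.8%, and in the test for any difference between segments 1 against 77.7%. The median size of the log2 difference over the 200 was 0.10, 0.08 and 0.09 in the 3 pairs, against 0.76, 0.81 and 0.72 over the 10390 transcripts, and the largest difference of a member was -0.32 (RT against DR).

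Of the 5 members called, 3 are also those with the widest segment means. The widest, transcript145941, was at 117, 123 and 122 CPM in the SH, 128, 130 and 124 CPM in the DR and 105, 104 and 97.0 CPM in the RT. Its RT libraries all lay below the other 6, and the RT was lower than the DR by a log2 difference of -0.32. In transcript53213 the DR was lowest, at 42.2, 44.3 and 43.5 CPM, and the RT highest, at 53.7, 56.8 and 51.8 CPM, with a log2 difference of 0.32. In transcript34151 the DR was at 33.1, 32.7 and 31.3 CPM, above the SH at 26.7, 26.1 and 26.0 CPM by 0.30 on the log2 scale. The other 2, transcript54119 and transcript127902, are named because they were called. The first was at 59.98 ± 0.659 CPM in the DR and 73.8 ± 2.87 CPM in the RT (SD, n = 3), and the second at 35.0 ± 0.489 and 28.6 ± 2.25 CPM (SD, n = 3).

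By library size the same test called 147 of the 200 in RT against SH, where 62% of all transcripts were called, and 135 in DR against SH, where 59.4% were. Every one of these was lower in the SH. In RT against DR it called 1, where 56.7% of all transcripts were called. The test for any difference between segments called 151, where 79% of all transcripts were called. Calls of these members between shoot and root thus depended on the scale.

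Other fits gave other counts of these members. DESeq2 called 20, 2 and 10 in RT against DR, RT against SH and DR against SH, beside 58.6%, 59.4% and 58.6% of all transcripts, and 17 beside 79.1% for any difference. Under RLE factors edgeR called 13, 0 and 4, beside 57.1%, 57.5% and 57.1%, and 7 beside 77.2%. With the replicate number as a block it called 0 in all 3 pairs, beside 54.7%, 55.5% and 54.4%, and 0 beside 74.4%. At an adjusted p of 0.01 it called 0, beside 44.2%, 45.3% and 43.6%, and 0 beside 64.8%. With a log2 difference of at least 2 it called 0 in the 3 pairs, beside 20.2%, 21.2% and 23.9%.

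Whether steadiness carried over to libraries that played no part in the choice was examined by repeating the selection on 6 libraries. With replicate 1, 2 or 3 of every segment left out, 116, 151 and 136 of the 200 chosen were also among the 200 of the full selection. Their median CV was 0.0727, 0.0852 and 0.0824 in the 6 libraries used, and 0.130, 0.0934 and 0.105 in the 3 left out, against 0.425, 0.470 and 0.494 for all transcripts at or above 20 CPM. In the left-out libraries 84, 125 and 112 of the 200 had all 3 segments within 25%, or 42.0%, 62.5% and 56.0%, against 6.77%, 5.40% and 5.20% of all transcripts. Replicate 1 carried over least, and its 3 libraries include SH replicate 1 and RT replicate 1, which have the lowest and the highest TMM factor. Their part in this result was not tested.

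The harder case was a segment never seen. Chosen on the DR and RT alone, 110 of 200 (55.0%) had an SH level within 25% of the mean of the root segments (a factor of no more than that in either direction), against 27.8% of all transcripts, with a median difference of 1.21-fold. Chosen on the SH and RT, 78 (39.0%) were that close in the DR, against 26.1%, with a median of 1.34-fold. Chosen on the SH and DR, 74 (37.0%) were that close in the RT, against 23.3%, with a median of 1.40-fold. More than 2-fold off were 8, 29 and 30 of the 200, or 4.00%, 14.5% and 15.0%, against 32.8%, 35.5% and 38.9% of all transcripts. Single transcripts chosen without the RT ranged from 0.275 to 3.81 times the other segments in it, so some of those steady in 2 segments lay far off in the third.

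By library size, the share within 25% in a segment left out was 17.5%, 27.0% and 25.0% for the SH, DR and RT, against 17.3%, 26.6% and 24.4% of all transcripts. More than 2-fold off were 16.0%, 23.0% and 30.5%, against 42.7%, 32.6% and 37.9% of all transcripts. With that scale the transcripts chosen on 2 segments were thus about as often within 25% in the third as transcripts in general, and fewer of them lay more than 2-fold off. These are shares without a test.

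**Figure D5:**
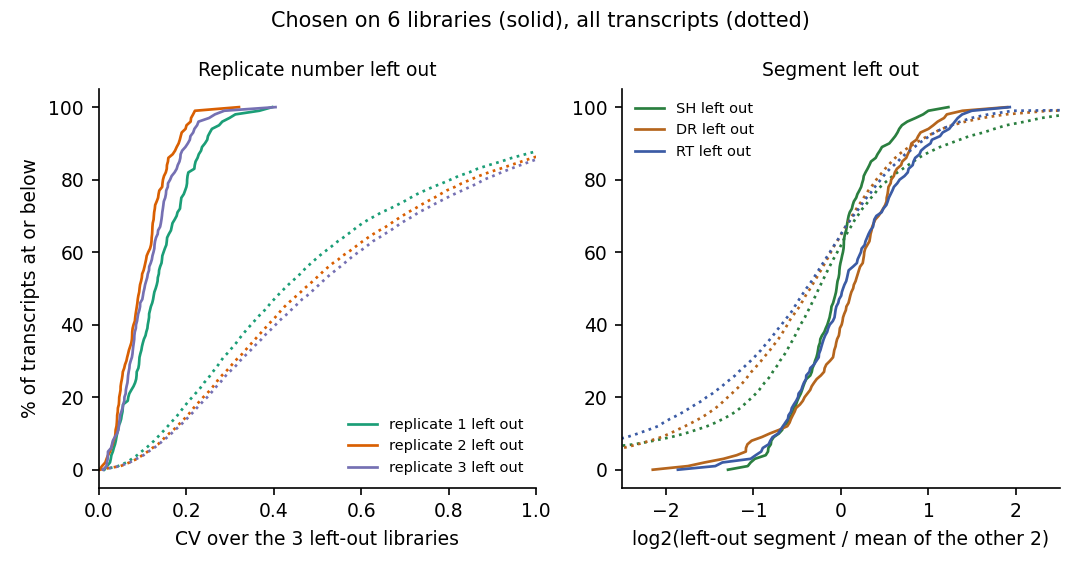
Cumulative percentage of transcripts at or below a value, solid for 200 transcripts chosen on 6 libraries and dotted for all transcripts of at least 20 CPM, by the CV over the 3 libraries of a left-out replicate number (left) and by the log2 ratio of a left-out segment to the mean of the other 2 (right). The solid curves rise steeply on the left, with median CVs of 0.0934 to 0.130, and less so on the right, where 37.0% to 55.0% lie within 25%.

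Transcripts with fractional counts were about as frequent among the 200 as among the 10390. How many reads were shared was not measured. Estimated counts are whole numbers where reads fit a single transcript and fractional where reads were divided between similar ones, and a value within 1e-06 of a whole number was taken as whole. Of the 200, 122 (61.0%) had whole counts in all 9 libraries, against 57.8% of the 10390, and 19 (9.50%) had fractional counts in all 9, against 9.74%. Among the 10 steadiest, transcript50189, transcript56644, transcript37343, transcript22778 and transcript53077 had at most 1 library with a fractional count, as had transcript58037, while transcript128196 and transcript50482 were fractional in all 9, and the level of the latter 2 is less certain. All 5 of the most abundant members were fractional in at least 7 libraries. Of the 81 members that stayed steady under all scalings but library size, 47 had whole counts throughout. Only transcript53077 and transcript53078 had neighbouring numbers in the assembly, at 29.1 and 21.3 CPM, and the pair was named after this was seen.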

How the data were processed

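RNA was sequenced from the SH, DR and RT of Ceratopteris with 3 libraries each. The authors checked and trimmed reads with FastQC 0.11.2 and Trimmomatic 0.32, assembled and clustered a transcriptome from all libraries and quantified each library with kallisto 0.44.0, per the submitters' processing notes and the methods. The deposited table is named for TPM, and its values were taken as the authors' estimated counts per transcript, not divided by library size or length. This was inferred from the values, which sum to at least 20065742 per library, far above the total that TPM can reach. Only 17.1% to 19.1% of them in a library are fractional. Every CPM, counting error and call rests on it. They were rounded to whole numbers and analysed in R 4.3.3 with edgeR 4.0.16, limma 3.58.1 and DESeq2 1.42.0. Total counts of 20065742 to 27376654 per library set the precision. Transcripts named are the 10 with the smallest CV, the 5 largest and 2 smallest means, the 2 on each side of the limit, the 5 with the smallest worst-case CV, the 3 with the largest CV by library size and the 3 with the widest segment means, with exceptions stated. The members and lists were chosen with earlier results of these data known. Alternatives were other scalings, floors, measures of spread, tests, the replicate number as a block and each library left out. Library size without the 24 transcripts that are among the 10 most abundant of a segment, and a spread from ratios between transcripts, were added after the data were seen. On simulated data drawn from these libraries for 28952 transcripts, the rule recovered 98% of transcripts given equal segment means and a low spread. That spread was preset at a low value and not taken from the 200. A high recovery was thus largely built in, and the 98% says nothing of the 200. A further simulation had no segment difference outside the changed transcripts, unlike these libraries. In it edgeR in RT against SH recovered 94% of 4-fold and 100% of 8-fold changes and called 8 unchanged ones. Replicates differed by far more than sampling noise (a chi-square averaging 19.1 or more over transcripts), so no library was counted as a duplicate.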

Additional observations from a re-analysis of the deposited data

How the results depend on the processing

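The median CV of the 200, 0.0900, moved to 0.176 by library size, 0.0996 under RLE, 0.0940 under TMMwsp, 0.0997 under quantile normalization and 0.0859 under the mean of the 10 steadiest, and ran from 0.0827 to 0.0917 with single libraries left out. The number kept was 19 by library size, 124 under quantile normalization, 75 with a floor of 50 CPM, which only 75 members reach, and 120 when ranked by the highest over the lowest segment mean. Library size without the most abundant transcripts, added after the data were seen, gave a median CV of 0.144, kept 53 and left 73 within 25% by segment means, against 20 by full library size, with a median log2 SH ratio of -0.31. A spread taken from ratios between transcripts, also added, kept 136. The log2 SH ratio of -0.011 became -0.43 by library size, -0.042 under RLE, -0.086 under upper-quartile, -0.062 under TMMwsp and -0.13 under quantile normalization. It ran from -0.057 (without RT replicate 3) to 0.017 (without RT replicate 2) with single libraries left out. Leaving out a library kept between 142, without RT replicate 3, and 177 members, with 190 to 200 within 25% by segment means. The causes of these shifts were not tested.

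Calls in RT against DR, RT against SH, DR against SH and any segment (4, 0, 1 and 1 with edgeR) became 1, 147, 135 and 151 by library size, 13, 0, 4 and 7 under RLE, 5, 1, 1 and 2 under the mean of the 10 steadiest, 20, 2, 10 and 17 with DESeq2, 5, 0, 1 and 2 with limma voom, and 0 in all 4 at an adjusted p of 0.01. At a log2 difference of at least 2 the first 3 were 0. Over all transcripts the shares called were 57.8%, 58.1%, 57.8% and 77.7% under the mean of the 10 steadiest. With limma voom they were 58.4%, 57.8%, 57.4% and 78.1%, and those of the other fits stand further up. With single libraries left out the calls of members ran from 0 to 3, 0 to 3, 0 to 6 and 0 to 2. They were 0 in DR against SH without any single SH or DR library. The shares over all transcripts are not given for these fits, so nothing is drawn from the changes. In RT against DR the call count was 0 without SH replicate 3 or any single DR library, 1 without RT replicate 3 and 2 without SH replicate 2. In RT against SH it was 3 without RT replicate 1 or 3, and DR against SH reached 6 without RT replicate 3. The any-segment count was 2 without RT replicate 3 and 0 without any other single library. The replicate number as a block gave 0 calls in all 4, where 54.7%, 55.5%, 54.4% and 74.4% of all transcripts were called. The correlations of same-numbered libraries ran from -0.476 to 0.228 and 3 of 9 exceeded 0.1. Differently numbered libraries were not compared, so whether the numbers pair the samples cannot be decided from this.

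Depth limits the order among the steadiest. Counting made up 23.0% to 74.7% of the squared CV of the 10 with the smallest CV. With 3 libraries per segment, no library was tested for standing apart from the other 2.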
